A study of Sus scrofa with 16 samples.

Results

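The genes described here are 6 components or relatives of the thin filament, chosen by symbol for their function: the troponin genes *TNNC1*, *TNNI1* and *TNNT2*, the tropomyosin genes *TPM1* and *TPM4*, and *ACTA1*, which encodes skeletal α-actin. The choice was made with earlier results of these data known. Shares of all genes given beside their calls are therefore a scale and no test of the 6 genes as a set. All 6 were among the 3875 genes of the count table and all 6 passed the filter on low counts in each comparison. They were measured in primary satellite cells (SCs), the stem cells of skeletal muscle, from the intercostal (INT) muscle of male piglets aged 3 days, which were either DMD, carrying the deletion of exon 52 of *DMD*, or WT. Each of 4 DMD and 4 WT animals gave 1 differentiated (DIFF) and 1 proliferating (PROL) culture, so that DMD DIFF, DMD PROL, WT DIFF and WT PROL held 4 libraries each. The replicate number names the animal within a genotype.

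The groups shared the isolation, which removed cells with CD31 and CD45 and selected those with integrin β1, NCAM1 and M-cadherin, and the growth to passage 6. PROL cultures stayed in medium with 20% fetal bovine serum and basic fibroblast growth factor. DIFF cultures were switched to 5% horse serum, for 10 days in the sequencing methods and 7 days in the culture methods. SCs in culture are a model without innervation or load, and each library holds all cells of a dish, so a larger share of cells of one type and more RNA per cell cannot be told apart.

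In striated muscle the thin filament is a helix of actin with a strand of tropomyosin lying along it and a troponin complex at regular steps. Troponin C binds calcium, troponin I holds contraction off, and troponin T ties the complex to tropomyosin. During myogenesis myoblasts leave the cell cycle, fuse and replace cytoskeletal actins and tropomyosins by those of the sarcomere. Of the genes described here, *TNNC1* encodes the troponin C of slow skeletal and cardiac muscle, *TNNI1* the slow skeletal troponin I and *TNNT2* the cardiac troponin T, which immature skeletal muscle also makes. *TPM1* gives rise to muscle and non-muscle tropomyosins by alternative splicing, and *TPM4* encodes a mainly cytoskeletal tropomyosin.

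Library totals ran from 1110050 to 1781174 counts. The 18S ribosomal gene *RN18S* took 6.32% to 11.7% of the counts in 15 libraries and 20.4% in DMD PROL replicate 4, a library that had the lowest level of its group for 5 of the 6 genes. *DMD*, the targeted gene, had 30 to 48 counts per library in DMD DIFF, 24 to 32 in DMD PROL, 12 to 22 in WT DIFF and 6 in each WT PROL library. Where on *DMD* the reads lie was not examined, so these 3′ tag counts do not test the deletion. Of the 12 myogenic markers 8 were in the table. *PAX7* was among the others, which had no row under their symbols, and was therefore not analysed here. *MYF5*, a regulator of the myogenic lineage, had 2 to 18 counts in DMD DIFF libraries and 6 to 10 in DMD PROL libraries, and was listed at 0 in all 8 WT libraries, while *ITGB1*, which encodes the integrin β1 used for selection, averaged 7761, 5126, 3444 and 4193 CPM in DMD DIFF, DMD PROL, WT DIFF and WT PROL (CPM, counts scaled to a common library size with TMM factors over the 16 libraries). Levels below are CPM with mean ± SD over 4 animals. Since reads tag transcript ends and were not divided by length, levels are compared between groups and not between genes.

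*TNNC1*, the calcium sensor, had 163, 131, 121 and 248 CPM in the DMD DIFF cultures of animals 1 to 4 and 89.9, 86.0, 89.8 and 48.6 CPM in their PROL cultures. In WT animals 1 to 4 it had 33.1, 16.2, 35.0 and 42.2 CPM in DIFF and 1.46, 3.73, 3.26 and 3.08 CPM in PROL. The 4 groups did not overlap, with means of 166 ± 57.7 in DMD DIFF, 78.6 ± 20.1 in DMD PROL, 31.6 ± 11.0 in WT DIFF and 2.88 ± 0.988 in WT PROL. The WT PROL level rests on 2, 6, 6 and 4 counts, so fold changes against it are imprecise.

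*TNNI1*, the inhibitory subunit, had 771, 559, 718 and 839 CPM in DMD DIFF and 265, 296, 318 and 144 CPM in DMD PROL. In WT it had 79.9, 51.6, 72.5 and 104 CPM in DIFF and 7.29, 19.9, 16.3 and 18.5 CPM in PROL. The order of the groups was that of *TNNC1*, again without overlap, with means of 722 ± 119, 255.9 ± 77.4, 76.9 ± 21.4 and 15.5 ± 5.66 CPM in DMD DIFF, DMD PROL, WT DIFF and WT PROL. The lowest DMD PROL library of *TNNI1* was replicate 4, as it was for *TNNC1*. WT PROL libraries held 10 to 32 counts of *TNNI1*.

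*TNNT2*, the tropomyosin-binding subunit, had 467, 373, 429 and 571 CPM in DMD DIFF and 85.0, 111, 143 and 53.9 CPM in DMD PROL. In WT it had 85.4, 36.9, 62.2 and 80.4 CPM in DIFF and 4.37, 4.97, 8.70 and 4.62 CPM in PROL. DMD DIFF (460.2 ± 83.3) lay above all other libraries and WT PROL (5.67 ± 2.04) below all others, whereas DMD PROL (98.4 ± 38.1) and WT DIFF (66.2 ± 22.0) overlapped. WT PROL libraries held 6 to 16 counts of *TNNT2*.

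*ACTA1*, the actin of the skeletal thin filament, had 3093, 4068, 4002 and 3278 CPM in DMD DIFF and 695, 819, 724 and 318 CPM in DMD PROL. In WT it had 1222, 712, 1093 and 1230.4 CPM in DIFF and 59.7, 32.3, 43.5 and 43.1 CPM in PROL. Here the group means ran from DMD DIFF (3610.3 ± 497) over WT DIFF (1064 ± 243) and DMD PROL (639 ± 220.4) to WT PROL (44.7 ± 11.3), with overlap between WT DIFF and DMD PROL alone. The middle 2 groups thus stood in the opposite order to that of the 3 troponin genes.

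*TPM1* had 2831, 3559.5, 3879.6 and 3437 CPM in DMD DIFF and 793, 995, 1141 and 763 CPM in DMD PROL. In WT it had 880.2, 420.1, 509 and 783 CPM in DIFF and 520.2, 476, 541 and 482 CPM in PROL. DMD DIFF (3427 ± 439) stood clear of the rest, while WT DIFF (648 ± 219) overlapped both DMD PROL (923 ± 178) and WT PROL (505 ± 30.9). *TPM4* had 963, 1071, 1007 and 886 CPM in DMD DIFF and 341, 440.4, 423 and 422 CPM in DMD PROL. In WT it had 512, 386, 315 and 354 CPM in DIFF and 664, 437, 486 and 571 CPM in PROL. The DMD DIFF libraries of *TPM4* (982 ± 77.9) were all above the other 12, among which DMD PROL (407 ± 44.4), WT DIFF (392 ± 85.5) and WT PROL (539.8 ± 99.9) overlapped.

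**Figure D1:**
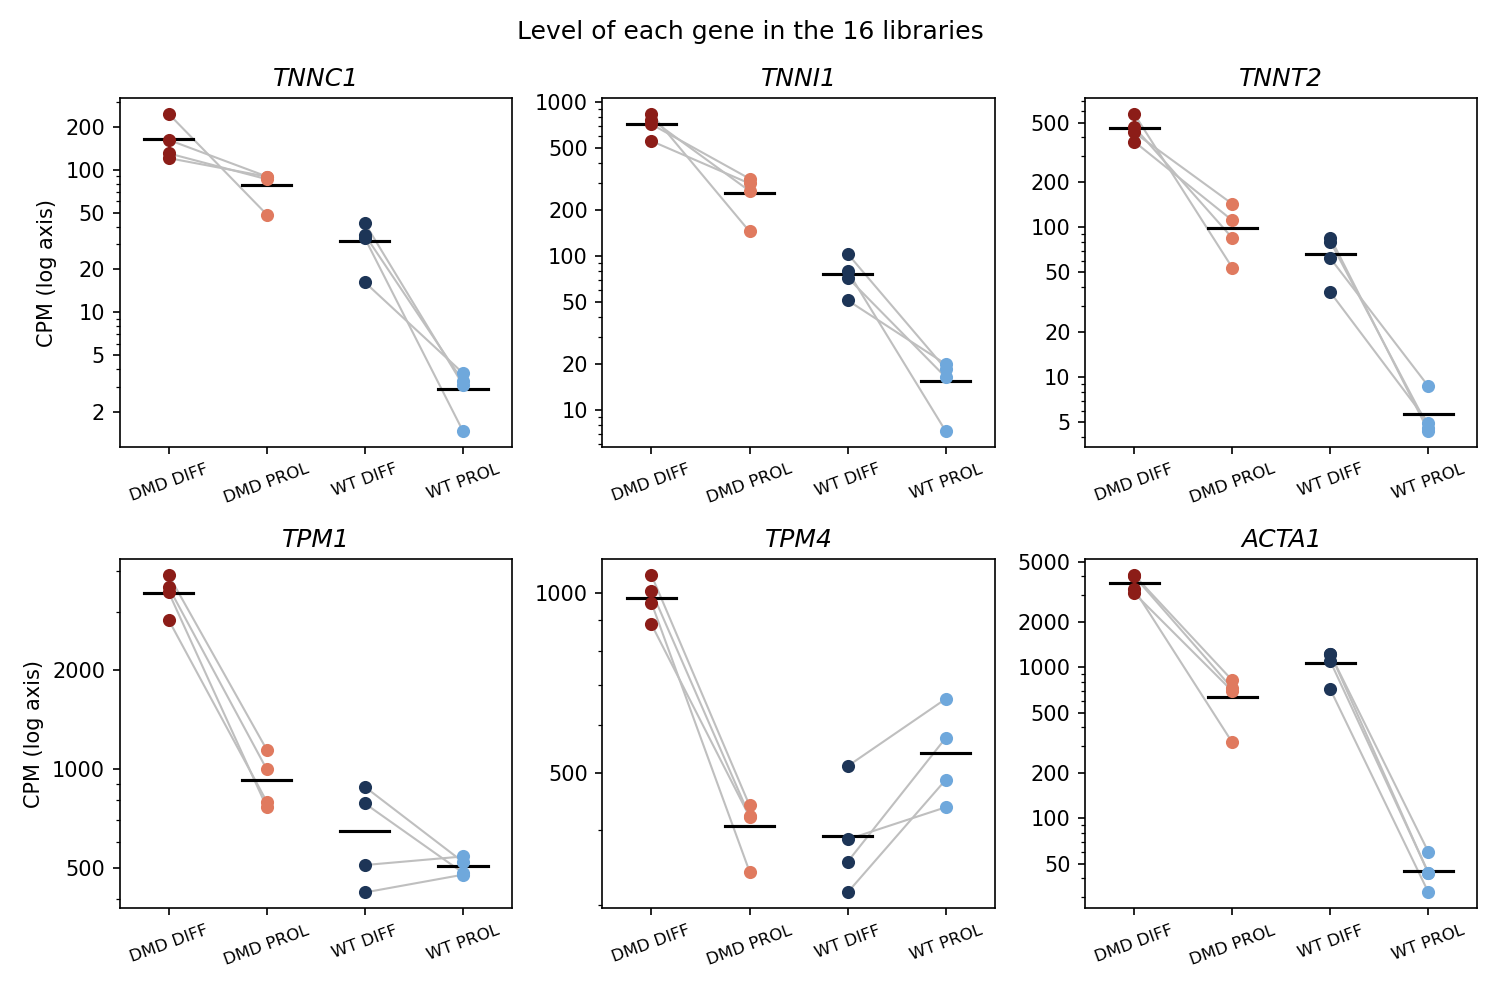
CPM (log axis) of the 6 genes in each of the 16 libraries, by group (points, libraries; black bars, means of 4 animals; grey lines join the DIFF and PROL cultures of an animal). Each gene was highest in the 4 DMD DIFF libraries, and the troponin genes and *ACTA1* were lowest in the 4 WT PROL libraries, with *TNNC1* between 1.46 and 3.73 CPM there. The share of all genes with such patterns was not counted.

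To ask how the genotypes differed before differentiation was induced, DMD PROL was compared with WT PROL. *TNNC1*, *TNNI1*, *TNNT2*, *TPM1* and *ACTA1* were higher in DMD and *TPM4* was not called, so that 5 of 6 genes rose, where 8.36% of the 1914 genes tested were called higher. A gene was called when edgeR's quasi-likelihood F test gave a Benjamini-Hochberg adjusted p under 0.05 over all genes tested and an absolute log2 fold change over 0.6. For the same 5 genes each DMD library was above each WT library, against 15.8% of all genes tested. Without DMD PROL replicate 4 the same 5 genes were called.

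Of the 6 genes the troponin genes had the largest fold changes. *TNNC1* averaged 78.6 CPM in DMD PROL and 2.88 CPM in WT PROL, a ratio of 27.3, with a log2 difference of 4.70 in the fit (SE 0.32, edgeR adjusted p = 4.57e-08). The log2 fold changes of the other 2 troponin genes were close to each other, 4.05 ± 0.34 (SE) for *TNNT2* and 4.02 ± 0.32 for *TNNI1*, at edgeR adjusted p of 8.06e-07 and 4.89e-06. *ACTA1* was 14.3 times as high in DMD PROL as in WT PROL by group means, or 3.84 on the log2 scale in the fit (SE 0.35, adjusted p = 1.73e-04). *TPM1* rose by a smaller step, 0.86 on the log2 scale (SE 0.12, adjusted p = 5.50e-05). *TPM4* was at −0.42 (SE 0.12, adjusted p = 0.0212), which is under the fold threshold, and its groups overlapped. The median log2 fold change was 3.93 over the 6 genes and −0.00 over all genes tested.

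In DIFF, DMD was compared with WT after the switch to low serum. All 6 genes rose, each with its 4 DMD libraries above its 4 WT libraries, where 16.1% of the 1916 genes tested were called higher and 22.1% had such separated groups. *TNNI1* had the largest log2 fold change, 3.22 (SE 0.18, edgeR adjusted p = 1.57e-08), with a mean 9.38 times that of WT DIFF. *TNNT2* rose by 2.78 (SE 0.22, adjusted p = 1.78e-06), *TPM1* by 2.40 (SE 0.24, adjusted p = 3.56e-05) and *TNNC1* by 2.37 (SE 0.29, adjusted p = 2.93e-05) on the log2 scale in that edgeR test. *ACTA1* rose by 1.76 (SE 0.16, adjusted p = 1.52e-06) and *TPM4* by 1.32 (SE 0.13, adjusted p = 6.19e-07). The median of the 6 log2 fold changes was 2.38, against −0.03 over all genes tested.

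Next, DIFF was compared with PROL within each genotype. In DMD SCs all 6 genes rose in DIFF, where 16.0% of 1886 genes tested were called higher, and the 4 DIFF libraries lay above the 4 PROL libraries for each gene, against 21.6% of all genes. The largest log2 changes were those of *ACTA1*, 2.49 ± 0.30 (SE), and *TNNT2*, 2.21 ± 0.28, with edgeR adjusted p of 5.74e-04 and 3.46e-04. *TPM1* rose by 1.88 (SE 0.14, adjusted p = 5.27e-07), *TNNI1* by 1.48 (SE 0.25, adjusted p = 0.00196), *TPM4* by 1.26 (SE 0.09, adjusted p = 1.24e-08) and *TNNC1* by 1.06 (SE 0.26, adjusted p = 0.00656) on the log2 scale. Animals differed in the size of the step: *TNNC1* was 5.10 times as high in DIFF as in PROL in DMD animal 4, whose PROL library carried the high share of *RN18S*, and 1.81, 1.52 and 1.35 times in animals 1, 2 and 3. Without that PROL library the log2 fold change of *TNNC1* was 0.89 and that of *ACTA1* 2.27, and all 6 genes were still called. Without both cultures of DMD animal 4 *TNNC1* was at 0.62 (adjusted p = 0.00744), close to the fold threshold.

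In WT SCs 4 of 6 genes rose in DIFF, where 17.9% of 1921 genes tested were called higher, and the same 4 had no overlap between states, against 23.6% of all genes. *ACTA1* rose by 4.56 on the log2 scale (SE 0.23, edgeR adjusted p = 1.67e-07), against 52 to 82 counts per PROL library, and was 20.5, 22.0, 25.1 and 28.5 times as high in DIFF as in PROL in WT animals 1 to 4. *TNNT2* rose by 3.48 (SE 0.34, adjusted p = 6.87e-07), *TNNC1* by 3.38 (SE 0.41, adjusted p = 7.70e-06) and *TNNI1* by 2.28 (SE 0.29, adjusted p = 1.18e-05). Neither tropomyosin gene was called. *TPM1* was at 0.34 on the log2 scale (SE 0.22, adjusted p = 0.242), with ratios of DIFF to PROL of 1.69, 0.883, 0.942 and 1.63 in animals 1 to 4. *TPM4* had −0.48 (SE 0.16, adjusted p = 0.0307), short of the fold threshold, and was lower in DIFF than in PROL in 4 of 4 WT animals, with ratios of 0.620 to 0.883. With library size in place of TMM factors *TPM4* was called lower (−0.83, adjusted p = 0.00109), while the median over all genes moved to −0.32 from 0.03 in that setting. It was also called lower without WT DIFF replicate 1 (−0.64, adjusted p = 0.00209).

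**Figure D2:**
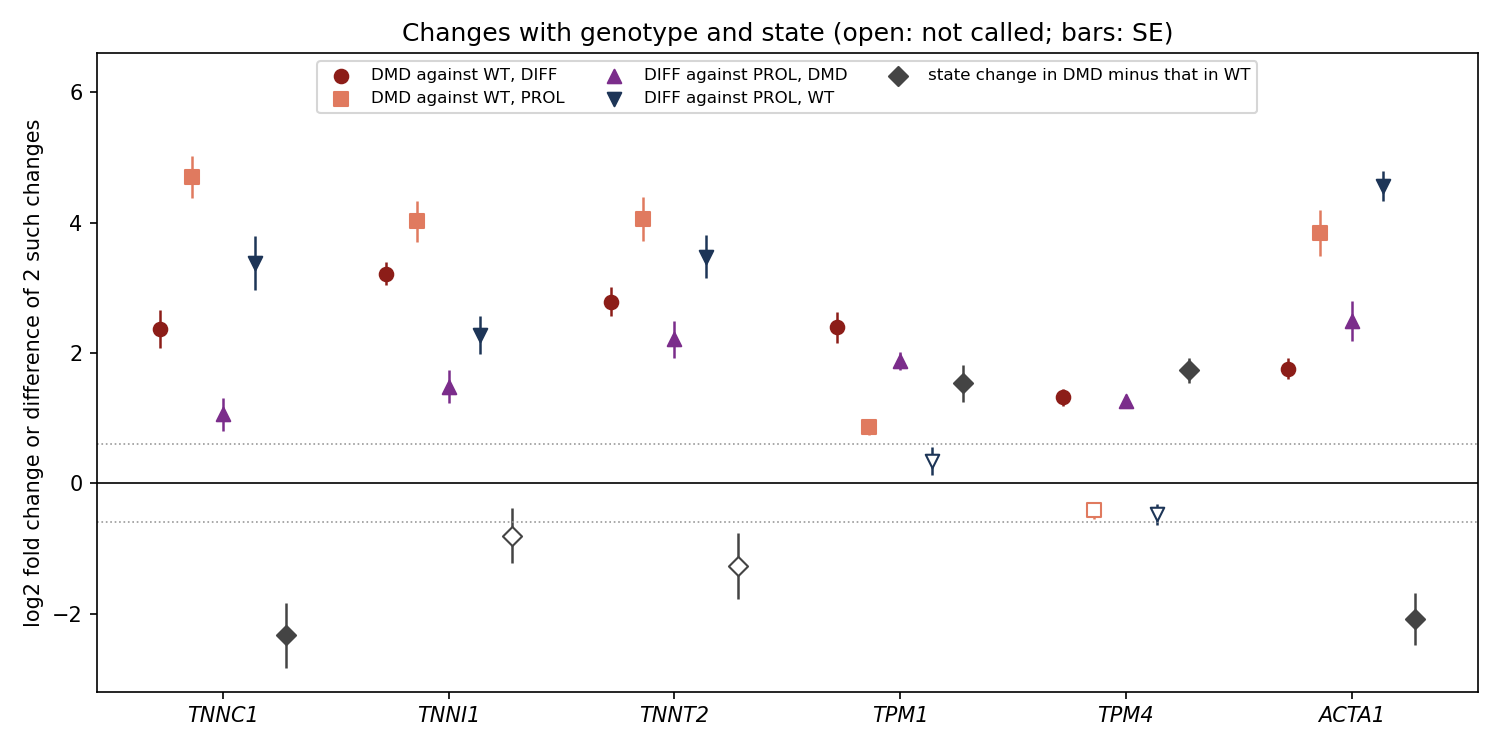
Log2 fold changes of the 6 genes with SE bars in both genotype comparisons and both state comparisons, and the difference between the state changes of the genotypes (open symbols, not called; dotted lines, the fold threshold of 0.6; the SE is derived from the edgeR statistic). The difference between state changes was −2.33 for *TNNC1* and −2.08 for *ACTA1*, and 1.53 for *TPM1* and 1.73 for *TPM4*.

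Whether the change from PROL to DIFF differed between genotypes was tested as an interaction over all 16 libraries. The 6 genes divided: 2 had a higher log2 change in DMD, where 10.5% of 2030 genes tested were called in this direction, and 2 a lower one, where 13.0% were. *TPM4* (1.73, SE 0.20, edgeR adjusted p = 1.41e-06) and *TPM1* (1.53, SE 0.29, adjusted p = 9.39e-04), the tropomyosin genes, had the higher change in DMD. *TNNC1* (−2.33, SE 0.50, adjusted p = 0.00126) and *ACTA1* (−2.08, SE 0.40, adjusted p = 0.00135) had the smaller log2 rise in DMD. This holds for fold changes and not for the step in CPM. Mean *ACTA1* went from 639 to 3610.3 CPM in DMD and from 44.7 to 1064 CPM in WT. Mean *TNNC1* went from 78.6 to 166 CPM in DMD and from 2.88 to 31.6 CPM in WT, whose PROL libraries held 2 to 6 counts. *TNNT2* (−1.27, SE 0.51, adjusted p = 0.0750) and *TNNI1* (−0.80, SE 0.42, adjusted p = 0.179) had values of the same sign that did not pass. Without DMD PROL replicate 4, the library with the high share of *RN18S*, both passed in the edgeR test (*TNNT2* −1.46, adjusted p = 0.0140; *TNNI1* −0.99, adjusted p = 0.0279), and without WT DIFF replicate 2 *TNNT2* passed (−1.46, adjusted p = 0.0213). On the first technical duplicate alone *TNNC1* did not pass (−1.57, adjusted p = 0.0734).

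The remaining pairs of groups fix the order of the levels. DMD PROL, grown in full serum, was compared with WT DIFF, and 2 of 6 genes were higher in DMD PROL, where 18.5% of 1926 genes tested were called higher. These were *TNNI1*, higher by 1.73 on the log2 scale (SE 0.28, edgeR adjusted p = 5.95e-04), and *TNNC1*, with 1.30 (SE 0.26, adjusted p = 5.53e-04). *TNNT2* (0.57, SE 0.33, adjusted p = 0.174), *TPM1* (0.51, SE 0.26, adjusted p = 0.140), *TPM4* (0.05, SE 0.13, adjusted p = 0.768) and *ACTA1* (−0.74, SE 0.32, adjusted p = 0.0907) were not called. Without DMD PROL replicate 4 *TNNT2* was called higher (0.76, adjusted p = 0.0256). *ACTA1* was called lower with the likelihood ratio test (−0.74, adjusted p = 0.00606) and in a fit over all 16 libraries (−0.74, adjusted p = 0.0281). These comparisons share groups with those above and are not independent of them.

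DMD DIFF against WT PROL spans the whole range, and all 6 genes were higher there, where 14.7% of 1902 genes tested were called higher. The log2 fold changes were 6.34 for *ACTA1*, 6.28 for *TNNT2*, 5.78 for *TNNC1*, 5.52 for *TNNI1*, 2.76 for *TPM1* and 0.86 for *TPM4*, with edgeR adjusted p between 3.60e-13 and 2.11e-05. In ratios of group means this was 81.2 for *TNNT2*, 80.8 for *ACTA1* and 1.82 for *TPM4*. The order for *TNNC1* and *TNNI1* was thus DMD DIFF, DMD PROL, WT DIFF, WT PROL with each neighbour called apart. For *TNNT2* and *ACTA1* the middle groups were not called apart, for *TPM1* neither DMD PROL and WT DIFF nor WT DIFF and WT PROL were, and for *TPM4* only DMD DIFF was called apart from the other groups.

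Ratios of 2 genes within a library do not depend on how libraries are scaled. They were taken as log2((count + 1)/(count + 1)) and compared between 4 DMD and 4 WT animals with a two-sided exact permutation test, whose smallest p is 0.0286, and between the states of the 8 animals with an exact sign-flip test, whose smallest p is 0.00781. There were 12 such tests, with Benjamini-Hochberg adjustment over them. The linear ratio of *TPM4* to *TPM1*, a cytoskeletal against a partly muscle-specific tropomyosin, averaged 0.290 ± 0.0391 in DMD DIFF, 0.449 ± 0.0758 in DMD PROL, 0.643 ± 0.197 in WT DIFF and 1.07 ± 0.190 in WT PROL (SD, n = 4). Its log2 value was lower in DMD by 1.11 in DIFF and by 1.25 in PROL, without overlap (exact permutation p = 0.0286, adjusted p = 0.0417 for each). Between states it differed by −0.70 (exact sign-flip p = 0.0156, adjusted p = 0.0417) and was lower in DIFF in 7 of 8 animals.

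The ratio of *ACTA1* to *TPM1* ran from 0.954 to 1.14 in DMD DIFF, 0.417 to 0.876 in DMD PROL, 1.39 to 2.15 in WT DIFF and 0.0691 to 0.116 in WT PROL. On the log2 scale it was 2.91 higher in DMD in PROL and 0.67 lower in DMD in DIFF (exact permutation p = 0.0286, adjusted p = 0.0417 for each). It was higher in DIFF in 8 of 8 animals, by 2.46 on average (exact sign-flip p = 0.00781, adjusted p = 0.0417).

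Within the troponin complex, *TNNI1* to *TNNC1* averaged 4.57 ± 1.05 in DMD DIFF, 3.21 ± 0.313 in DMD PROL, 2.49 ± 0.432 in WT DIFF and 4.45 ± 0.573 in WT PROL. Its log2 difference between DMD and WT was 0.86 in DIFF and −0.47 in PROL, without overlap in either state (exact permutation p = 0.0286, adjusted p = 0.0417 for each). Between states it was −0.18 over the animals of both genotypes (exact sign-flip p = 0.516), which averages opposite changes. From PROL to DIFF the ratio rose in the 4 DMD animals and fell in the 4 WT animals. Its mean log2 value went from 1.68 to 2.16 in DMD and from 2.15 to 1.30 in WT. The genotype difference in PROL rests on 2 to 6 counts of *TNNC1* per WT library. With a pseudocount of 2 this difference was −0.28 and did not pass, and on the first technical duplicate it was 0.54, the opposite sign, and did not pass either. *TNNT2* to *TNNC1* averaged 2.89 ± 0.504 in DMD DIFF, 1.23 ± 0.278 in DMD PROL, 2.11 ± 0.353 in WT DIFF and 1.86 ± 0.602 in WT PROL. It was higher in DIFF in 7 of 8 animals by 0.73 on the log2 scale (exact sign-flip p = 0.0313, adjusted p = 0.0417), and the genotypes overlapped in PROL (−0.56, exact permutation p = 0.143) and in DIFF (0.45, exact permutation p = 0.0571). Leaving out any 1 library took each of the 9 ratio calls above an adjusted p of 0.05, in sets that are small for a permutation test. For the genotype ratios this was fixed in advance, since the smallest exact permutation p of the reduced set is above 0.05. The loss of these calls therefore does not show whether they are stable. The log2 differences kept their sign. Between genotypes in PROL they ran from 2.78 to 3.13 for *ACTA1* to *TPM1* and from −0.56 to −0.41 for *TNNI1* to *TNNC1*.

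**Figure D3:**
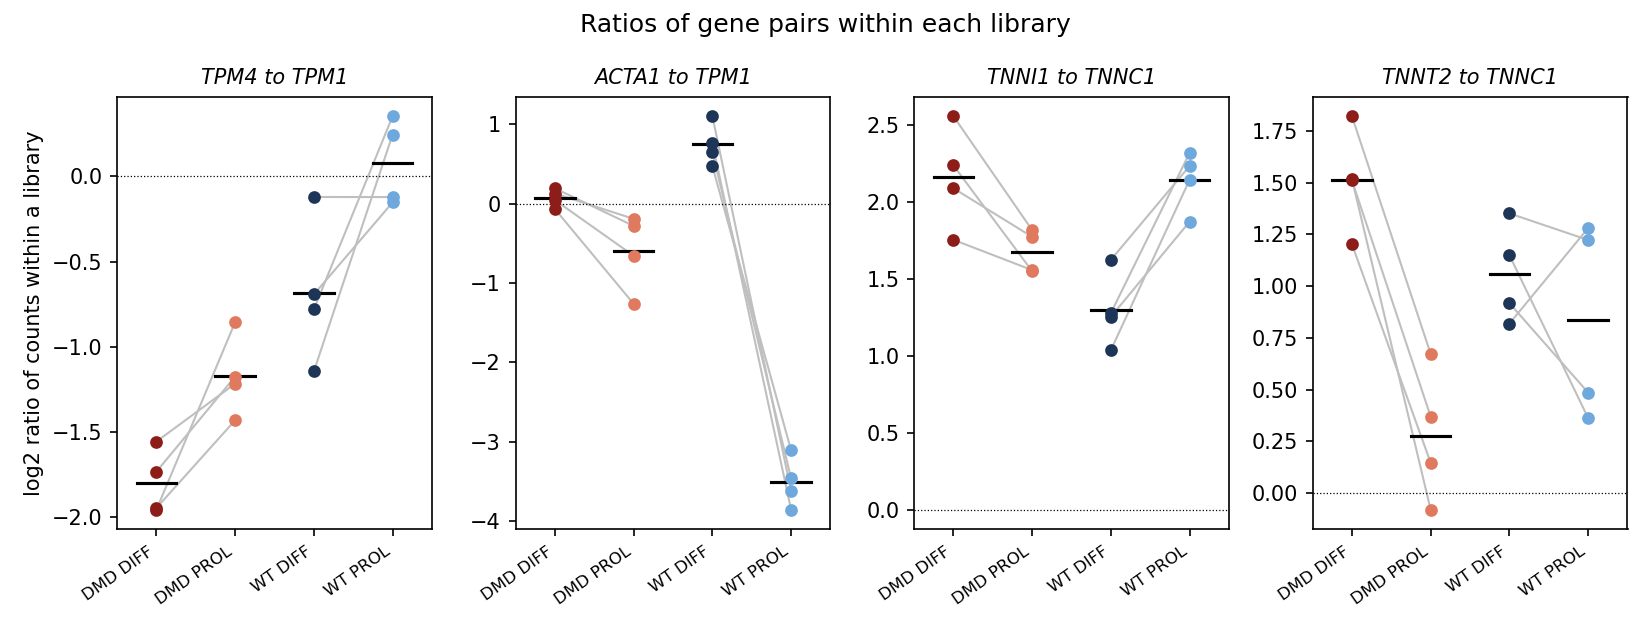
Log2 ratios of the counts of 2 genes within each library, by group (points, libraries; black bars, means of 4 animals; grey lines join the cultures of an animal; the dotted line marks equal counts). *TPM4* to *TPM1* was lower in all DMD libraries than in all WT libraries of the same state, and *ACTA1* to *TPM1* was 0.0691 to 0.116 on the linear scale in WT PROL, under all other libraries.

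Among the other thin filament genes, a list of 32 of which 15 were in the table under the listed symbols, the pattern was mixed. *COFILIN*, an older symbol of the listed *CFL1*, had a row that the counts below leave out. It was not called between genotypes in PROL (−0.04, edgeR adjusted p = 0.863). In PROL 10 of the list were tested, with a median log2 fold change of 0.15. Of these 4 were higher in DMD, against 8.36% of all genes tested, and none lower. *TNNT1*, the slow skeletal troponin T (4.30, SE 0.24, edgeR adjusted p = 1.72e-07), and *ACTC1*, cardiac α-actin and a main actin of immature skeletal muscle (4.28, SE 0.22, adjusted p = 1.15e-06), rose about as far as the troponin genes above. *CFL2*, which encodes the muscle cofilin that severs actin filaments, rose by 1.49 and *PFN1*, the actin monomer-binding profilin, by 0.62 on the log2 scale. In DIFF 11 were tested, with a median of 1.42. Of these 7 were higher and 1 lower in DMD, where 16.1% of all genes tested were called higher and 17.5% lower. *PFN1* (1.42), *CFL2* (1.26) and *TNNT1* (1.98) rose, and *TMOD3*, which encodes a tropomodulin that caps the pointed end of actin filaments, fell by 1.78 on the log2 scale (edgeR adjusted p = 1.52e-06). In DIFF against PROL in DMD SCs 5 of 11 tested were higher and 2 lower, against background shares of 16.0% higher and 12.4% lower over all genes. In WT SCs 3 of 10 were higher and 2 lower, against background shares of 17.9% higher and 14.3% lower over all genes. In the interaction 3 of 11 had a higher change in DMD (*ACTA2*, *TPM2* and *PFN1*), against 10.5% of all genes tested. A lower change was called for 3 (*TNNT1*, *ACTC1* and *TMOD3*), against 13.0% of all genes tested. *TNNT1* at −2.32 and *ACTC1* at −1.44 were on the side of *TNNC1* and *ACTA1*, and *TPM2* at 2.10 on that of *TPM1* and *TPM4*.

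Tropomyosins outside the 6 genes did not move as one. *TPM2*, another muscle tropomyosin gene, was like *TPM4* called higher in DMD in DIFF and not called in PROL. It had 9204 ± 1417 CPM in DMD DIFF, 2021 ± 163 in DMD PROL, 2399 ± 711 in WT DIFF and 2266 ± 618 in WT PROL, with log2 differences between genotypes of 1.93 in DIFF (SE 0.20, edgeR adjusted p = 1.76e-05) and of −0.17 in PROL (SE 0.16, adjusted p = 0.468). *TPM3* was not called between genotypes in DIFF (−0.28, adjusted p = 0.254) or PROL (−0.23, adjusted p = 0.278) and was lower in DIFF than in PROL in both genotypes (DMD −1.07, adjusted p = 9.88e-05; WT −1.02, adjusted p = 1.26e-04). Of the other troponin genes, *TNNC2* (fast skeletal troponin C) and *TNNI3* (cardiac troponin I) were scarce. *TNNC2* summed to 20, 4, 8 and 2 counts and *TNNI3* to 42, 8, 2 and 6 counts over the 4 libraries of DMD DIFF, DMD PROL, WT DIFF and WT PROL. Members of these families have related sequences, and how the counting treated reads shared by paralogs is not given in the sources used here. *TNNI1* and *TNNT2* lie close to each other in the RefSeq gene order of Sscrofa11.1, with *LAD1* between them.

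The thick filament and Z-disc list held 32 genes, 18 of them in the table under the listed symbols, with *MYH4* at 0 counts in all 16 libraries. *MLC2V*, an older symbol of the listed *MYL2*, had a row that the counts below leave out. It was higher in DMD in PROL (4.97 on the log2 scale, edgeR adjusted p = 1.2e-08). In PROL 10 were tested, 7 were higher in DMD and 1 lower, where 9.87% of all genes tested were called lower, with a median log2 fold change of 4.24. In DIFF all 11 tested were higher in DMD, with a median of 2.51. *DES* (desmin) had a log2 fold change of 4.03 in PROL and 2.92 in DIFF, *MYLPF* (a fast regulatory light chain) 4.95 and 2.51, and *MYL1* (a skeletal alkali light chain) 4.58 and 2.19. *MYOT*, which encodes the Z-disc protein myotilin, had 5.14 in PROL, resting on 4 counts over the 4 WT libraries. *ACTN2* (sarcomeric α-actinin) and *MYH1* (a fast myosin heavy chain) had 1.94 and 4.58 in DIFF. *MYL9*, the light chain of smooth muscle and non-muscle myosin, was lower in DMD in PROL (−1.002, edgeR adjusted p = 0.00340) and higher in DIFF (2.02, adjusted p = 0.00167). In the interaction 3 of 12 tested had a higher change in DMD, among them *MYL9*, against 10.5% of all genes tested. A lower change was called for 4 (*MYL1*, *MYLPF*, *ACTN2* and *DES*), against 13.0% of all genes tested. In PROL the log2 fold changes of all sarcomere genes tested in both states were either 3.84 (*ACTA1*) and above, as for *TNNC1*, *TNNI1* and *TNNT2*, or 1.49 (*CFL2*) and below, as for *TPM1* and *TPM4*.

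**Figure D4:**
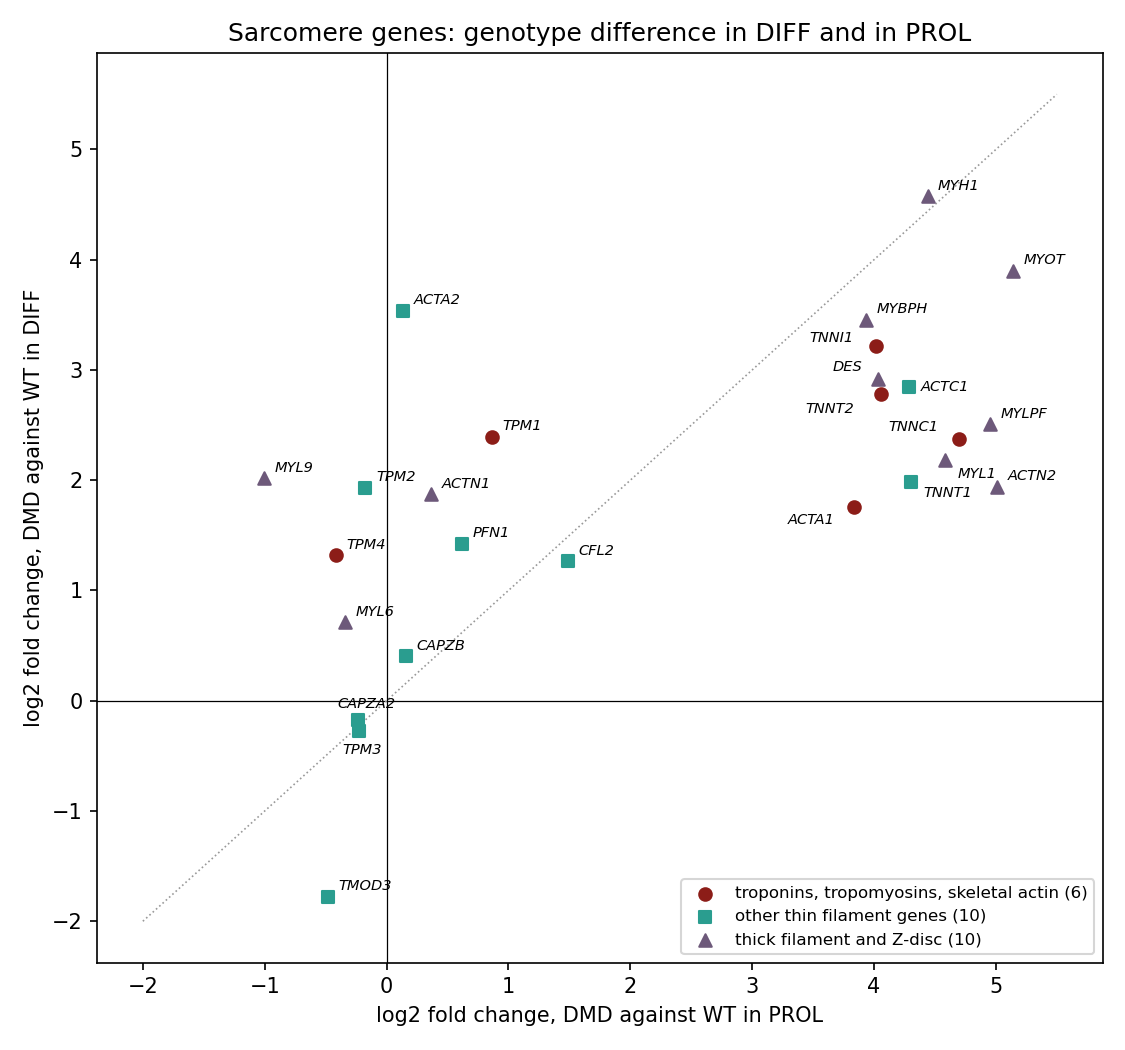
Log2 fold changes of DMD against WT in PROL (horizontal axis) and in DIFF (vertical axis) for the 6 genes, 10 other thin filament genes and 10 thick filament and Z-disc genes tested in both states (dotted line, equal change). *TNNC1* (4.70 in PROL and 2.37 in DIFF) and *ACTA1* lay below the line, and *TPM1* (0.86 and 2.40) and *TPM4* above it.

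Genes with the most similar profile over the 16 libraries were found among 2024 others by the root mean square (RMS) difference of centred log2 CPM, which is a description over libraries that share 4 groups. *TNNC1* was nearest to *MYL1* (RMS difference 0.325), *ACTC1* (0.374) and *MYLPF* (0.402). *TNNI1* was nearest to *ACTC1* (0.410), *DES* (0.486) and *MYLPF* (0.540), and *TNNT2* to *ACTC1* (0.374), *CARP* (0.426), an ankyrin repeat protein of muscle now named ANKRD1, and *TNNT1* (0.433). The nearest to *ACTA1* were *CARP* (0.610), *TNNT1* (0.636) and *PALMD* (0.734), which encodes palmdelphin, all at larger distances. *TPM1* was nearest to *ARHGEF2* (0.430), *TPM2* (0.436) and *TAGLN* (0.457), which encodes the smooth muscle actin-binding protein transgelin. *TPM4* had smaller distances to its neighbours than the other 5 genes: *TMSB4X* (0.195), which encodes the actin monomer-binding thymosin β4, *GHITM* (0.217), a mitochondrial membrane protein, and *LOC733637* (0.242). The distance is not scaled to how far a gene varies, and the group means of *TPM4* ran only from 392 to 982 CPM. Among the 6 genes themselves *TNNC1* and *TNNI1* were the most alike (0.392) and *TPM4* and *ACTA1* the least (2.19).

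Markers of other cells moved with genotype and state too. The 9 fibroblast markers in the table of 14 listed summed to 10521 to 13686 CPM in DMD DIFF, 4277 to 4756 in DMD PROL, 22716 to 25834 in WT DIFF and 8545 to 10355 in WT PROL. In PROL 6 of 8 tested were lower in DMD, against 9.87% of all genes tested, among them *DCN* (decorin, −2.90, edgeR adjusted p = 1.63e-06) and *MFAP5* (a microfibril protein, −1.89, adjusted p = 3.59e-06). In DIFF 6 of 9 were lower, against 17.5% of all genes tested, led by *DCN* (−4.23) and *POSTN* (periostin, −5.93). There 1, the collagen gene *COL5A1*, was higher, against 16.1% of all genes tested. The 6 smooth muscle and pericyte markers in the table of 11 listed summed to 16837 to 22097 CPM in DMD DIFF, 2025 to 2595 in DMD PROL, 1706 to 4001 in WT DIFF and 2294 to 3651 in WT PROL. All 5 tested were higher in DMD in DIFF, against 16.1% of all genes tested. In PROL 3 of 6 were lower in DMD, against 9.87% of all genes tested, and none higher. Of these *MYL9* and the pericyte gene *RGS5* (−4.40, edgeR adjusted p = 0.00482) were first by p. *ACTA2*, smooth muscle α-actin, and *TAGLN* had log2 fold changes of 3.54 and 2.47 in DIFF and 0.13 (adjusted p = 0.590) and −0.23 (adjusted p = 0.346) in PROL. In the interaction 6 of 6 tested had a higher change in DMD, against 10.5% of all genes tested, with a median of 3.21. This is the direction of *TPM1* and *TPM4*.

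Myogenic markers differed in the direction of the troponin genes. In PROL 3 of 4 tested were higher in DMD, against 8.36% of all genes tested: *MEF2C*, a transcription factor of muscle genes (3.46, edgeR adjusted p = 2.07e-08), *DES* and *DMD*. Of these, *DES* was already counted in the thick filament and Z-disc list, and *DMD* is the targeted gene. *ITGB1* was not called in PROL (0.28, adjusted p = 0.189). In DIFF 5 of 5 were higher, against 16.1% of all genes tested, among them *ITGB1* (1.16, adjusted p = 4.46e-08) and *MYOG* (myogenin, 3.03, adjusted p = 9.17e-06). The sum over the 8 myogenic markers in the table, mostly *ITGB1*, was 9509 to 11119 CPM in DMD DIFF, 5684 to 6851 in DMD PROL, 3589 to 4095 in WT DIFF and 3086 to 4980 in WT PROL. Endothelial markers, 3 of 8 in the table, summed to at most 49.1 CPM in DMD DIFF, 28.9 in DMD PROL, 114 in WT DIFF and 134 in WT PROL, with *ERG* and *PECAM1* lower in DMD in both states. Blood markers, 4 of 7 in the table with *CD3E* at 0 everywhere, reached at most 72.9 CPM in sum, and *CD14* was lower in DMD in PROL (−0.71) and in DIFF (−1.40). Heart muscle markers, 3 of 7 in the table, reached 2.33 to 15.7 CPM in DMD DIFF, all of it *TNNI3*, and at most 2.53 CPM elsewhere, with *NPPA* at 0 in all libraries. The part of these other cells in the levels of the 6 genes was not tested.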

How the data were processed

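The deposited table holds raw counts per gene, without normalization, for 2 technical duplicates of 16 libraries (32 columns). According to the authors, cDNA was primed from 25 ng of total RNA with poly-dT carrying a UMI and a well barcode. Reads were demultiplexed with bcl2fastq, deduplicated with UMI-tools and counted by STAR 2.7.10b on susScr3. The annotation and the strand setting are not given in the sources used here. All 124000 values are even, for which no reason is given, and they were used as deposited.

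Duplicates were added, giving 1110050 to 1781174 counts per library. Tests used R 4.3.3 with edgeR 4.0.16 (filterByExpr with minimum count 10 and minimum total 15, TMM, robust quasi-likelihood F test). Each pair of groups was tested on its 8 libraries and the interaction on all 16. Calls needed a Benjamini-Hochberg adjusted p under 0.05 over all genes tested and an absolute log2 fold change over 0.6. The SE is the absolute log2 fold change divided by the square root of F. CPM use TMM factors over 16 libraries, and likeness used log2 CPM with a prior count of 2. Ratio tests used Python 3.11.15 with SciPy 1.17.1. The fit was tested on simulated data.

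The genes and lists were chosen with earlier results of these data known. Besides the 6 genes, the text names the called genes with the smallest p (up to 4 per sarcomere list and genotype comparison, up to 2 per marker list and comparison), markers at 0, the 3 likest genes per member and *DMD*. *TPM2*, *TPM3*, *TNNC2*, *TNNI3*, *MYF5*, *MYOG*, *COL5A1*, *RN18S*, *LAD1*, *MLC2V* and *COFILIN* were named outside that rule, after their values were seen. Lists were matched by the listed symbols, so genes with a row under another symbol were not counted. *ACTA2* and *MYL9* belong to both a sarcomere and the smooth muscle list, and *TNNI3* to both the thin filament and the heart list. *DES* belongs to both the thick filament and Z-disc and the myogenic list.

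The PROL and DIFF cultures of an animal share a number, since they come from the same animal by the labels. Over the 8 pairs, the correlation of deviations from group means was 0.0998 to 0.172. Between genotypes the number only names a sample. Alternatives were DESeq2 1.42.0, library size scaling with and without *RN18S*, other count filters, the likelihood ratio test, a fit over 16 libraries, a replicate block, single duplicates, halved counts and leaving out each library. Leaving out both cultures of an animal was chosen after seeing the data. Replicates are separate animals, so p-values between genotypes measure the spread between 4 animals per genotype. The main edgeR tests of state and of the interaction had no term for the animal. They treated the cultures of an animal as independent, and the pairing entered only in the replicate block.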

Additional observations from a re-analysis of the deposited data

Results flagged for a closer look

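Of 24 sets of 4 libraries (6 genes in 4 groups), 2 held a library far from the other 3 by Dixon's criterion for 4 values, where chance gives about 1 in 20. *TNNC1* was at 48.6 CPM in DMD PROL replicate 4, against 86.0 to 89.9 CPM in the other DMD PROL libraries; this is the library in which *RN18S* took 20.4% of the counts. *TNNT2* was at 8.70 CPM in WT PROL replicate 3, against 4.37 to 4.97 CPM in the other WT PROL libraries, which is 16 counts against 6 to 8. In that library the first technical duplicate held 12 counts and the second 4.

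For 4 genes the change between states differed between genotypes in the interaction test with edgeR. The log2 change from PROL to DIFF in DMD minus that in WT was 1.73 for *TPM4* and 1.53 for *TPM1*, and −2.33 for *TNNC1* and −2.08 for *ACTA1*. The sign of the *TPM4* change itself was opposite in the genotypes in 8 of 8 animals, higher in DIFF in the 4 DMD animals and lower in the 4 WT animals.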

How the results depend on the processing

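Over 7 comparisons the 6 genes had 935 alternative values, of which 916 kept direction and call, 16 gained a call, 1 lost it and 2 changed sign. Both changes of sign were of *TPM4* in DMD PROL against WT DIFF, a value near 0 that was never called (−0.023 on the second technical duplicate, and −0.045 to 0.196 on leaving out 1 library, the lowest without WT DIFF replicate 3). The number of genes called stayed at 5 in DMD against WT in PROL, 6 in DMD against WT in DIFF, 6 in DIFF against PROL in DMD and 6 in DMD DIFF against WT PROL under each alternative, and ran from 3 to 5 in WT, 4 to 6 in the interaction and 2 to 3 in DMD PROL against WT DIFF. The 3 in WT came with a minimum count of 50, which left *TNNC1* untested. With animal as a replicate block the state change of *TNNC1* was 1.02 in DMD (adjusted p = 0.0472) and 3.33 in WT, and the block changed no call. Leaving out 1 library or animal moved it between 0.62 and 1.25 in DMD, the lowest without both cultures of DMD animal 4.

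Among the 12 ratio tests, 9 passed in the first place, 8 with a pseudocount of 2, 8 on the first and 7 on the second duplicate. *TNNI1* to *TNNC1* changed sign on the first duplicate, to 0.54 in DMD against WT in PROL and to 0.36 between states. Scaling by library size alone shifted the median log2 fold change of all genes to −0.15 in DMD against WT in PROL, 0.10 in DIFF, −0.32 in DIFF against PROL in WT and 0.25 in the interaction, and the number called higher of those called to 122 of 386 (160 of 349 with TMM), 387 of 654 (308 of 643), 194 of 757 (343 of 618) and 387 of 521 (213 of 476). Counts under 20 per WT PROL library limit *TNNC1* and *TNNT2*, and 10 to 32 counts per WT PROL library limit *TNNI1*.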
